A study of Mus musculus with 15 samples.

Results

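The pro-apoptotic arm of the BCL2 family was followed in 15 mouse RNA-seq libraries through 10 genes, chosen by symbol: the BH3-only genes Bcl2l11, Bbc3, Pmaip1, Bid, Bad, Bik, Bmf and Hrk (8 genes) and the effector genes Bax and Bak1 (2 genes). All 10 were found among the 51912 genes of the deposited table, and 8 of them were among the 15692 genes with enough counts to be tested; Bik and Hrk were not. All cells were wild-type B cells grown for 6 days on 40LB feeder cells, fibroblasts engineered to support B cells, with IL-4 at 100 ng/ml and no further treatment. Group D6 is the unsorted culture at day 6. The other cells were moved off the feeder into medium without stimulation for 2 days and sorted at day 8 into PC and iGC of each isotype, IgE and IgG1, where PC stands for plasma cells and iGC is the labels' name for the sorted cells that had not become plasma cells. Each of the 5 groups holds 3 libraries labelled as biological replicates. The labels do not say whether these came from separate animals, so p-values measure the spread between these libraries. D6 differs from the sorted groups at once in day, in feeder and IL-4, and in sorting, which cannot be told apart. The study's title places the comparison of IgE and IgG1 cells in a question about how IgE plasma cells form and survive.

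BAX and BAK form pores in the outer mitochondrial membrane, which release cytochrome c and start the caspases. Pro-survival relatives such as BCL2, BCL-XL and MCL1 hold them in check, and BH3-only proteins trigger death by occupying the groove of the pro-survival proteins with a short helix, the BH3 region, or by engaging BAX and BAK directly. BIM, the product of Bcl2l11, limits the number of lymphocytes, including plasma cells and B cells that lose survival signals. PUMA (Bbc3) and NOXA (Pmaip1) are textbook targets of p53, and much of the activity of BID, BAD and BMF is set after translation, by cleavage, phosphorylation or release from the cytoskeleton.

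The BH3 region is what the members share, and it is shown as coding sequence for the 7 tested genes in which it was searched for. The search was for a leucine, any 3 residues, a small residue (glycine, alanine or serine), an aspartate, any residue and a hydrophobic residue (phenylalanine, leucine, isoleucine, methionine or valine). This pattern was found exactly once in each of the 9 members searched, and in 2672 of 21723 protein-coding genes (12.3%). Pmaip1 was not searched. Each run of 45 bases is written 5′ to 3′ on the gene's strand, from GRCm38 with GENCODE gene models, and the capitals mark the codons of the leucine, the small residue and the aspartate.
Bcl2l11: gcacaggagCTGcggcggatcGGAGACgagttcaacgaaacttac
Bbc3: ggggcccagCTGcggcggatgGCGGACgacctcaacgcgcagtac
Bmf: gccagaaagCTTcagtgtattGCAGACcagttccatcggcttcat
Bid: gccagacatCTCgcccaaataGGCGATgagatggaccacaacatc
Bad: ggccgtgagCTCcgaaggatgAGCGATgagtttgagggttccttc
Bax: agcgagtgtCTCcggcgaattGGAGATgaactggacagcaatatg
Bak1: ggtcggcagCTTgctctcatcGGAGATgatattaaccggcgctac
These coding stretches lie at chr2:128147141-128147185 on the plus strand for Bcl2l11 (exon 3 of 4), chr7:16313764-16313808 on the plus strand for Bbc3 (exon 3 of 4) and chr2:118545091-118545135 on the minus strand for Bmf (exon 4 of 5). For Bid the stretch is chr6:120897280-120897324, minus strand (exon 4 of 6), and for Bad chr19:6950783-6950827, plus strand (exon 3 of 4). The effector genes hold it at chr7:45465988-45466032, minus strand, exon 3 of 6 (Bax) and chr17:27022522-27022566, minus strand, exon 4 of 6 (Bak1).

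Deposited expected counts summed to between 17.74 M and 54.07 M reads per library, the lowest being IgE iGC replicate 3. Plasma cell markers (8 genes) were summed in TPM (transcript level scaled per length and to a fixed library sum). The sums were 10110 to 11180 in IgE PC and 6504 to 7836 in IgG1 PC. They were 755 to 834 in IgE iGC, 437 to 457 in IgG1 iGC and 682 to 733 in D6. B cell markers (8 genes) summed to 7553 to 7926 TPM in the iGC groups, to 1940 to 2150 in IgE PC and to 2812 to 3351 in IgG1 PC, with 3930 to 4214 in D6. Fibroblast markers (10 genes, for feeder cells) summed to 140 to 190 TPM in D6, 25.5 to 38.2 in the iGC groups, 28.5 to 58.5 in IgG1 PC and 6.42 to 10 in IgE PC, and their part in the differences below was not tested. Postn was at 0 in all 12 libraries outside IgG1 PC. Markers of T cells, erythroid cells and mast cells or basophils stayed at or under 4.43 TPM in sum, with Cd3e at 0 in 4 of the 5 groups, and those of macrophages at 12.6 to 25.7 TPM. Plasma cells devote much of their RNA to few transcripts, and the choice of scale mattered: with totals alone as the scale, the median log2 change over all genes from iGC to PC was -0.55 in IgE, against -0.08 with TMM scaling, and in IgG1 it was -0.22 against 0.01. Fold changes below use CPM, the count scaled to a fixed library sum, here on TMM-scaled totals, and results that turn with the scale are given both ways. In bulk samples, fewer cells of a type and less RNA per cell cannot be told apart.

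Some pro-apoptotic transcripts differed in level between IgE plasma cells and IgG1 plasma cells. IgE PC had more Bbc3 (2.36-fold) and Bmf (1.96-fold), while IgG1 PC had more Bcl2l11 (1.74-fold), Bid (1.32-fold) and Pmaip1 (1.26-fold), and Bad, Bax and Bak1 passed no test. That is 5 of the 8 genes tested, 2 higher and 3 lower in IgE, where 58.1% of all genes were called (27.4% higher, 30.7% lower), so the share of members called is near the background. The members' median log2 difference was -0.10, against -0.05 over all genes. With totals alone as the scale 2 were higher and 5 lower in IgE, since Bax (-0.33) and Bak1 (-0.35) were then also called, Bid moved to -0.66, and the all-gene split became 14.5% higher and 46.3% lower.

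Between the iGC groups the isotypes differed less. Bbc3 (log2 difference 0.45, SE 0.10, adjusted p = 0.0214) and Bmf (0.37, SE 0.09, adjusted p = 0.0254) were higher in IgE iGC and Bid was lower (-0.25, SE 0.05, adjusted p = 0.0131), by edgeR's quasi-likelihood test with Benjamini-Hochberg adjustment, as are all adjusted p-values here. These 3 of 8 stand beside 3.87% of all genes called (1.99% higher, 1.88% lower), with median log2 differences of 0.13 for the members and 0.01 for all genes. Of the 8 plasma cell markers, 4 were called too, all higher in IgE iGC, and their part in these differences was not tested. Bbc3 was still called with totals alone as the scale (0.44), and Bmf (0.36, adjusted p = 0.0650) and Bid (-0.27, adjusted p = 0.0617) were not. The calls depended on single libraries: without IgE iGC replicate 1, IgE iGC replicate 2 or IgG1 iGC replicate 3 no member was called, while 3, 3 and 4 members had an unadjusted p under 0.05, and without IgG1 iGC replicate 1 or 2 there was 1 call, whereas without IgE iGC replicate 3 there were 3 calls. On all libraries DESeq2 called 3.

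From iGC to PC in IgE cells, Bbc3 (2.03-fold), Bmf (1.98-fold), Bcl2l11 (1.86-fold) and Bad (1.32-fold) rose, and Bid (2.07-fold), Pmaip1 (1.898-fold) and Bax (1.25-fold) fell, 7 of 8 genes tested. The background was 64.1% of all genes (30.5% higher, 33.6% lower), with medians of 0.14 for the members and -0.08 for all genes. With totals alone as the scale 3 members rose and 4 fell, against 16.9% and 55.7% of all genes: Bad was then at -0.07 and not called, and Bak1 fell by 0.59 on the log2 scale. The rises of Bcl2l11, Bbc3 and Bmf were then 0.43, 0.55 and 0.51, against 0.90, 1.02 and 0.98, and the falls of Pmaip1 and Bax were -1.39 and -0.79, against -0.92 and -0.32.

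In IgG1 cells the step to PC brought a larger rise of Bcl2l11 (3.51-fold) and small rises of Bad (1.31-fold) and Bmf (1.304-fold), while Bid (1.87-fold) and Pmaip1 (1.38-fold) fell. These are 5 of 8, with 59.1% of all genes called (30.1% higher, 29% lower) and medians of 0.16 and 0.01. Only Bcl2l11 of the 8 rose with totals alone as the scale, by 1.58 on the log2 scale, Bad (0.16) and Bmf (0.15) were not called, and 4 fell, against 20.6% and 43.6% of all genes.

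The test of the difference between these steps, the interaction of isotype and stage, called 4 of 8 members, 2 in each direction, where 42.9% of all genes were called (19.8% higher, 23.1% lower). The value is the change in IgE less the change in IgG1. Bcl2l11 (-0.91, SE 0.07, adjusted p = 1.92e-07) rose more in IgG1, Bbc3 (0.79, SE 0.14, adjusted p = 0.000491), which rose in IgE and did not pass in IgG1, and Bmf (0.60, SE 0.12, adjusted p = 0.00118) had the higher value in IgE, and Pmaip1 (-0.46, SE 0.12, adjusted p = 0.00622) fell more in IgE. Bid, Bad, Bax and Bak1 did not pass, with values of -0.15, 0.01, -0.28 and -0.21, though Bid was called without IgG1 PC replicate 1 (-0.18) and Bax without IgG1 PC replicate 2 (-0.36). Medians were -0.18 for the members and -0.06 for all genes. With totals alone as the scale the 4 called members kept their direction and call, with Bmf at 0.36 and Pmaip1 at -0.70, and Bid, Bax and Bak1 were called lower as well, giving 2 higher and 5 lower against 9.83% and 35.7% of all genes.

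**Figure D1:**
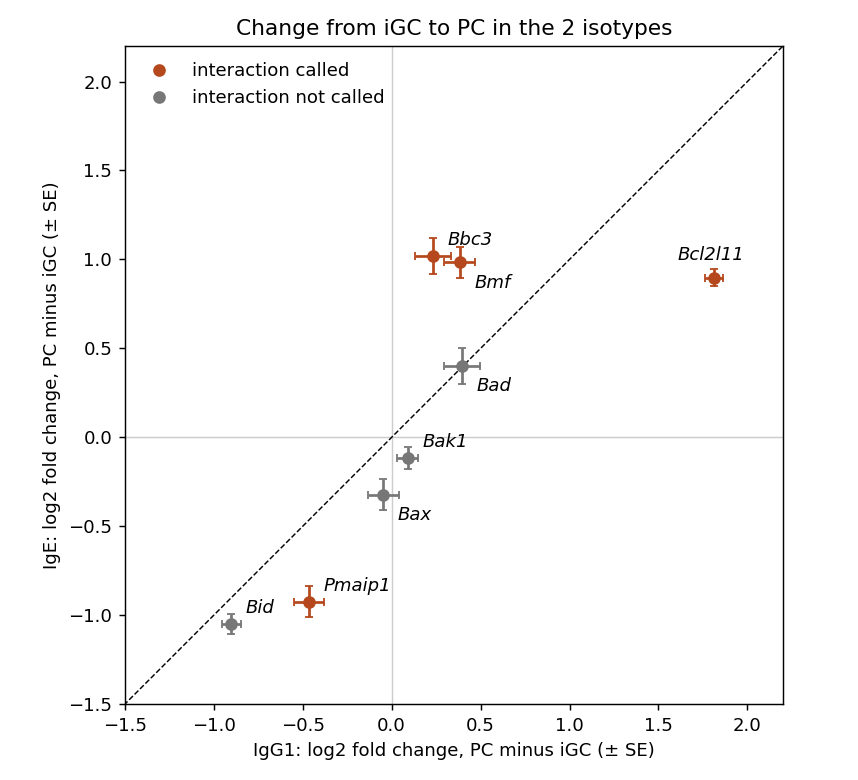
Log2 fold change from iGC to PC of the 8 tested genes in IgG1 (horizontal axis) and IgE (vertical axis), each with its SE; the dashed line marks equal change. Bcl2l11 lies below the line at 1.81 in IgG1 and 0.90 in IgE, Bbc3 and Bmf lie above it, and colour marks the 4 genes called in the interaction.

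Bcl2l11 encodes BIM, which binds all the main pro-survival proteins. In CPM on TMM-scaled totals its values were 67.1, 62.6 and 67.9 in D6, 65.9, 63.3 and 62.3 in IgE iGC, 60.8, 57.5 and 58.3 in IgG1 iGC, 121, 119 and 117 in IgE PC, and 200, 214 and 206 in IgG1 PC. The 3 IgG1 PC libraries stood above all others, the 3 IgE PC libraries stood between them and the rest, and D6 overlapped IgE iGC. The difference between IgE PC and IgG1 PC was -0.80 on the log2 scale (SE 0.05, adjusted p = 4.33e-09), and that between IgE iGC and IgG1 iGC was 0.12 (adjusted p = 0.272). Per length, in TPM, the group order changed. IgG1 PC stayed highest at 54.6, 77.7 and 87.0, but D6 came next at 37.8, 38.6 and 36.8, ahead of IgE PC at 35.1, 31.3 and 30.8, IgE iGC at 30.0, 29.4 and 26.7 and IgG1 iGC at 30.8, 24.7 and 26.1.

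**Figure D2:**
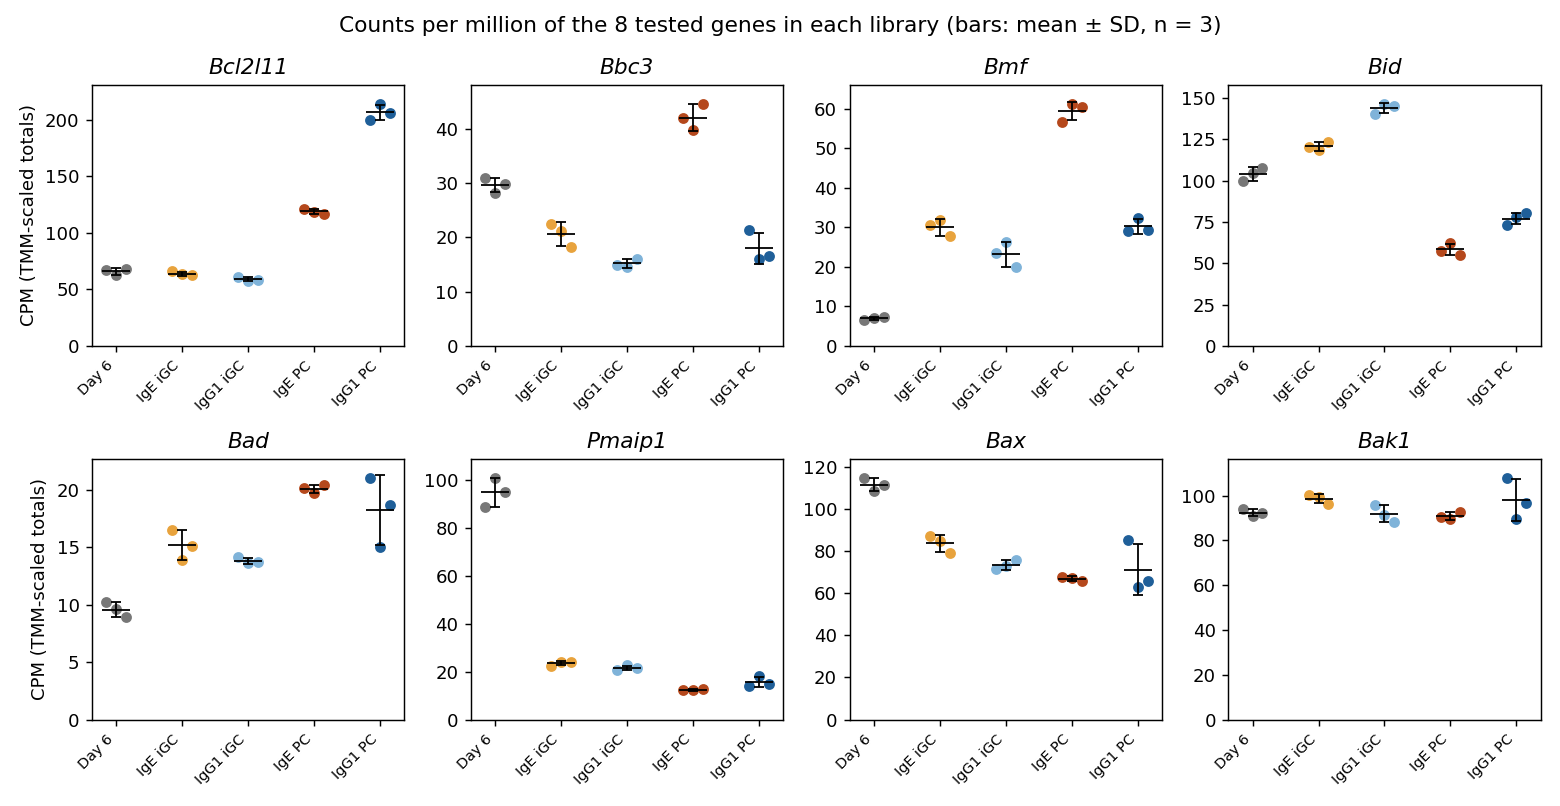
CPM on TMM-scaled totals (vertical axis, from 0) of each tested gene in each library, by group; bars show the mean and SD of 3 libraries. Bcl2l11 is highest in IgG1 PC (200 to 214 CPM), Bbc3 and Bmf are highest in IgE PC, and Pmaip1 is highest in D6.

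Bbc3 encodes PUMA, which like BIM binds every main pro-survival protein. Its CPM values were 30.8, 28.2 and 29.9 in D6, 22.5, 21.2 and 18.2 in IgE iGC, 14.96, 14.55 and 16.02 in IgG1 iGC, 41.9, 39.7 and 44.5 in IgE PC, and 21.31, 16.02 and 16.47 in IgG1 PC. IgE PC stood above every other library, and IgG1 PC overlapped both iGC groups. The difference between the plasma cell groups was 1.24 on the log2 scale (SE 0.10, adjusted p = 7.97e-08), and the change from iGC to PC in IgG1 was 0.23 (adjusted p = 0.0627), which was called without IgG1 PC replicate 2 (0.29) or replicate 3 (0.29). In TPM the groups did not overlap and D6 was highest (31.6, 29.9 and 31.5), followed by IgE PC (25.4, 23.5 and 24.5), IgE iGC (21.0, 20.8 and 17.7), IgG1 iGC (15.7, 15.3 and 15.8) and IgG1 PC (11.7, 10.9 and 10.8). IgE exceeded IgG1 at each stage on both scales.

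Bmf, whose product is held at the actin and myosin cytoskeleton until released, was higher in every sorted group than in D6. It was measured at 6.63, 7.16 and 7.31 CPM in D6, 30.5, 31.8 and 27.7 in IgE iGC, 23.4, 26.2 and 19.9 in IgG1 iGC, 56.7, 61.2 and 60.5 in IgE PC, and 29.0, 32.5 and 29.3 in IgG1 PC. Every sorted library stood above every D6 library and IgE PC above all others, while IgG1 PC overlapped IgE iGC. IgE PC exceeded IgG1 PC by 0.97 on the log2 scale (SE 0.09, adjusted p = 1.95e-07). In TPM, D6 was again lowest (3.15, 3.51 and 2.96), but the 4 sorted groups each overlapped their neighbour in the order, IgE PC (12.3, 14.9 and 13.6), IgE iGC (12.5, 12.9 and 10.9), IgG1 iGC (9.86, 12.1 and 7.35) and IgG1 PC (5.74, 9.30 and 7.45). The rise of Bmf from iGC to PC in IgG1 (0.38) was not called with totals alone as the scale (0.15, adjusted p = 0.189).

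Promoters are shown for Bcl2l11, higher in IgG1 PC, and Bmf, higher in IgE PC, and not for Bbc3, whose most upstream RefSeq start lies inside its GENCODE gene. They were chosen after their values were seen, and are given as the 250 bases before the most upstream RefSeq start (GRCm38.p6), written 5′ to 3′ on the gene's strand with motif matches in capitals. RefSeq lists 2 starts for Bcl2l11 and 3 for Bmf, and the windows of the others are not shown. Of the members, 8 of 10 had an entry. The motifs searched on both strands were GTAAACA (FOXO), CACGTG (E-box), GGAAA (NFAT), TGACG (CRE) and TGANTCA (AP-1), present in 3.17%, 6.02%, 55.6%, 17.8% and 6.75% of 32851 promoter windows of that length.
Bcl2l11: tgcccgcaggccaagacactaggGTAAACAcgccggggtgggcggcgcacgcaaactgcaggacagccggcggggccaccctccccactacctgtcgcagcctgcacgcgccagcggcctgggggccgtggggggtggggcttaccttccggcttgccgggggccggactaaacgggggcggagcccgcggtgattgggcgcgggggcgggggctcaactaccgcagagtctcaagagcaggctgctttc
Bmf: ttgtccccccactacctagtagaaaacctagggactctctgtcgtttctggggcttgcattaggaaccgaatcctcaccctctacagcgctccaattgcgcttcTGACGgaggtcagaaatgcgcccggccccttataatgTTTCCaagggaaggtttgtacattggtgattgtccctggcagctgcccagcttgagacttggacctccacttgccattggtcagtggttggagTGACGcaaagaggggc
The Bcl2l11 window is chr2:128125788-128126037 on the plus strand, and its only match was the FOXO motif, starting at -227 from the start. The Bmf window is chr2:118549687-118549936 on the minus strand, with CRE matches at -146 and -16 and an NFAT match at -109, on the reverse strand. A match describes these letters and is not a measured binding site.

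Pmaip1 encodes NOXA, which binds mainly MCL1. It had the highest level in the day 6 culture, at 89.0, 101 and 95.2 CPM. The values were 22.6, 24.3 and 24.3 in IgE iGC, 20.9, 22.7 and 21.6 in IgG1 iGC, 12.2, 12.4 and 12.8 in IgE PC, and 13.89, 18.14 and 15.02 in IgG1 PC. No D6 library overlapped a sorted one, the plasma cell groups stood below the iGC groups, and only the iGC groups overlapped each other. The order was the same in TPM, from 59.5 to 69.1 in D6 down to 4.52 to 4.62 in IgE PC. IgE PC was below IgG1 PC by a log2 difference of -0.34 (SE 0.09, adjusted p = 0.00383), which was -0.21 without IgG1 PC replicate 2 and -0.59 with totals alone as the scale, and the difference between the iGC groups was 0.13 (adjusted p = 0.562).

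Bid, which death receptor signalling activates through cleavage by caspase 8, followed the stage of the cells. Its CPM values were 99.8, 105 and 108 in D6, 120, 118 and 124 in IgE iGC, 141, 146 and 145 in IgG1 iGC, 57.7, 62.2 and 55.3 in IgE PC, and 73.3, 77.9 and 80.2 in IgG1 PC. The groups did not overlap on this scale, and IgG1 stood above IgE at both stages. The fall from iGC to PC was -1.05 in IgE (SE 0.06, adjusted p = 1.21e-10) and -0.90 in IgG1 (SE 0.05, adjusted p = 1.79e-09). The annotated Bid gene overlaps Bcl2l13 and Gm17812 on the opposite strand and Gm44260 on its own, and the strand setting of the counting is not given in the sources used here.

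Bad, whose product is held inactive by growth factor signals, was measured at 10.2, 9.60 and 8.93 CPM in D6, 16.5, 13.9 and 15.1 in IgE iGC, 14.1, 13.7 and 13.7 in IgG1 iGC, 20.1, 19.7 and 20.4 in IgE PC, and 21.03, 15.03 and 18.69 in IgG1 PC. Only D6 stood apart from all other libraries, below them. The isotypes overlapped at each stage, with log2 differences of 0.14 at both stages (adjusted p = 0.239 in PC and 0.624 in iGC). In TPM the order was different, with the iGC groups highest at 21.5 to 25.2, the PC groups at 16.6 to 21.2 and D6 at 15.3 to 18.1. Without IgG1 PC replicate 1 the PC difference was called, at 0.25. Bad overlaps Gpr137 on the opposite strand.

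Of the pore-forming genes, Bax was the most abundant member in TPM in all 15 libraries, with Bcl2l11 just under it in IgG1 PC replicate 3. The deposited TPM values of Bax were 243, 235 and 240 in D6, 162, 162 and 154 in IgE iGC, 134, 142 and 146 in IgG1 iGC, 78.2, 77.5 and 72.3 in IgE PC, and 92.1, 85.9 and 88.7 in IgG1 PC, with no overlap between groups. In CPM the PC groups overlapped, and so did IgG1 PC and IgG1 iGC: values were 109 to 115 in D6, 79.0 to 87.1 in IgE iGC, 71.2 to 75.8 in IgG1 iGC, 65.7 to 67.9 in IgE PC, and 85.02, 62.74 and 65.81 in IgG1 PC, where replicate 1 was high. The isotype difference in PC was -0.09 (SE 0.09, adjusted p = 0.407), and without that library it was 0.06, while the fall from iGC to PC in IgG1 (-0.05) was then called, at -0.19, as was the difference between the iGC groups, at 0.19. Expected counts of Bax were fractional in 14 of the 15 libraries, a sign that some of its reads were shared out between loci, and Gm45808 overlaps it on the same strand.

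Bak1 was the most even member on the TMM scale. Its CPM values were 94.1, 91.0 and 92.3 in D6, 100, 99.3 and 96.3 in IgE iGC, 96.0, 91.6 and 88.4 in IgG1 iGC, 90.7, 89.5 and 92.8 in IgE PC, and 108, 89.7 and 96.7 in IgG1 PC. Each group overlapped its neighbour in the order, and edgeR called Bak1 in 0 of the 9 comparisons, with an unadjusted p under 0.05 in 1, and DESeq2 in 0. Without IgG1 PC replicate 2 it was called in 6 comparisons, with log2 values between -0.27 (the interaction) and 0.16 (IgG1 PC against D6), without IgG1 PC replicate 1 in 2 of these 6, and without IgE PC replicate 3 in IgE iGC against D6 (0.14). With only the groups compared in the fit it was called in IgE PC against IgE iGC (-0.09, adjusted p = 0.0413) and IgE iGC against D6 (0.15, adjusted p = 0.00373). With totals alone as the scale it was called lower in PC in all 4 comparisons of PC with iGC or D6, by between -0.15 (IgG1 PC against IgG1 iGC) and -0.59 (IgE PC against IgE iGC). In TPM it was 85.4 to 92.8 in D6, 76.0 to 88.5 in IgE iGC, 80.8 to 87.2 in IgG1 iGC, 48.1 to 51.2 in IgE PC and 52.6 to 60.1 in IgG1 PC. Ggnbp1 overlaps Bak1 on the opposite strand.

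The remaining BH3-only genes were near or under detection. Bik, whose product sits at the endoplasmic reticulum, had expected counts of 9, 5 and 4 in D6, 5, 5 and 2 in IgE iGC, 5, 4 and 5 in IgG1 iGC, 3, 9 and 2 in IgE PC, and 19, 13 and 12 in IgG1 PC. The IgG1 PC libraries had the 3 highest counts, though in CPM they overlapped IgE PC, the next group. Without the filter on low counts, which leaves 28952 genes, the log2 difference between IgG1 PC and IgG1 iGC was 1.55 (SE 0.59, adjusted p = 0.0435 by edgeR), that between IgE PC and IgG1 PC was -1.33 (adjusted p = 0.0941) and that between IgG1 PC and D6 was 1.37 (adjusted p = 0.0561). Hrk, a gene known mainly from neurons, had 0 counts in all 15 libraries, which allows up to 3 counts in each, or 0.0555 to 0.169 CPM by depth (counting error only).

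Against the day 6 culture, 6 of 8 members were called in IgE iGC (69.1% of all genes called, 32.8% higher and 36.3% lower), 7 in IgG1 iGC (68.4%, 32.4% and 36%), 7 in IgE PC (76.4%, 36.9% and 39.5%) and 7 in IgG1 PC (71.9%, 35.9% and 36%). These shares are near or little above the background, and the 4 comparisons share the D6 libraries. Bmf was higher in all 4 sorted groups, by 2.10 (IgE iGC), 1.72 (IgG1 iGC), 3.08 (IgE PC) and 2.11 (IgG1 PC) on the log2 scale, and Bad was also higher in all 4, by 0.53 to 1.07. Pmaip1 was lower in all 4, at -2.005, -2.13, -2.93 and -2.59 in the same order, and Bax was lower by log2 changes from -0.74 to -0.41. The stages diverged for Bid, which was higher in the iGC groups (0.21 and 0.47) and lower in the PC groups (-0.83 and -0.43), though with totals alone as the scale the IgE iGC value was 0.15 and not called (adjusted p = 0.0851), and the PC values were -1.37 and -0.71. They diverged too for Bcl2l11, which was higher in the PC groups (0.85 and 1.65) and lower in IgG1 iGC (-0.16, adjusted p = 0.00899), a call lost without IgE PC replicate 3 (-0.10), without IgG1 iGC replicate 2 (-0.14), without the filter on low counts (-0.15) and with only the groups compared in the fit (-0.10). Bbc3 was higher than D6 in IgE PC alone (0.50, SE 0.10, adjusted p = 0.000251) and lower in IgE iGC (-0.52), IgG1 iGC (-0.97) and IgG1 PC (-0.73), but with totals alone as the scale the IgE PC value was -0.03 and not called. The IgE PC values were then 0.32 for Bcl2l11, 0.53 for Bad and -1.27 for Bax. On that scale the IgE PC calls were 3 higher and 4 lower, in place of 4 higher and 3 lower, and the all-gene split was 21.1% and 57.6%. Fibroblast markers, which were highest in D6, moved with these comparisons.

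**Figure D3:**
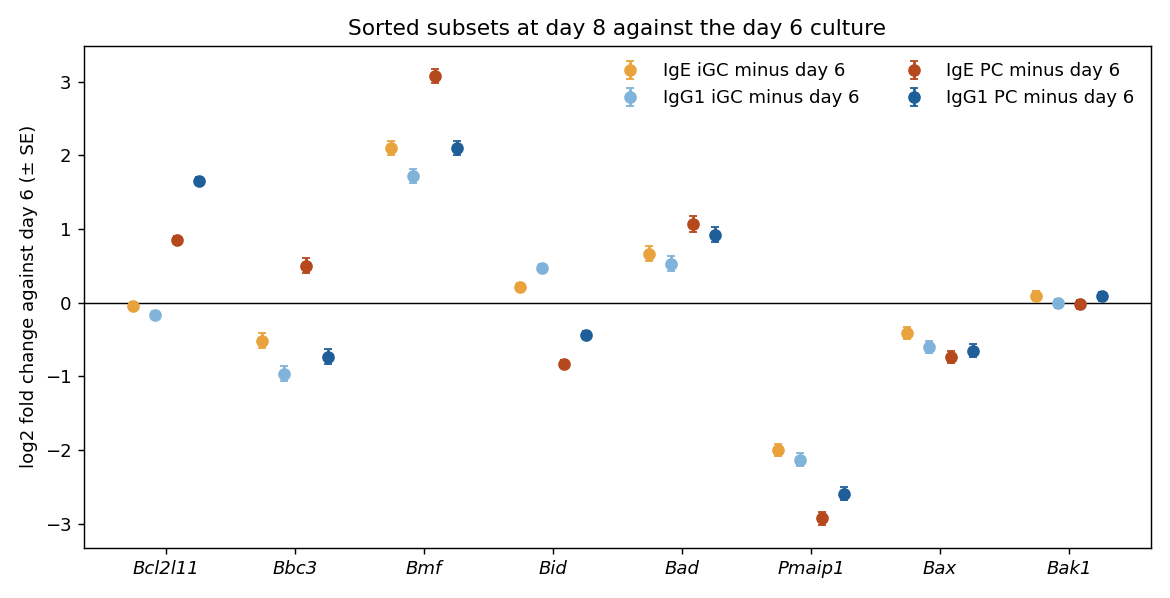
Log2 fold change of each sorted group against D6 (vertical axis; points with SE from edgeR) for the 8 tested genes. Bmf is above 0 and Pmaip1 below 0 in all 4 groups, Bid and Bcl2l11 separate the PC groups from the iGC groups, and Bak1 stays near 0.

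The make-up of the set, taken as each gene's share of the summed TPM of the 10 genes, showed the same contrast within each library, without reference to other genes. The summed TPM was 575 ± 3.64 (SD, n = 3) in D6, 432 ± 12.3 in IgE iGC, 426 ± 7.25 in IgG1 iGC, 247 ± 8.21 in IgE PC and 304 ± 27.1 in IgG1 PC. Unlike the shares, this sum moves with the scale of a library, and it was not taken on the TMM scale. On the TMM scale the members' median log2 change against D6 was 0.24 in IgE PC and -0.17 in IgG1 PC. The medians over all genes were -0.04 and 0.01. Of the summed TPM, Bcl2l11 held 6.57% ± 0.11 in D6, 6.64% ± 0.25 in IgE iGC, 6.40% ± 0.86 in IgG1 iGC, 13.1% ± 0.65 in IgE PC and 23.9% ± 3.50 in IgG1 PC. Bbc3 held 9.92% ± 0.46 in IgE PC and 3.70% ± 0.52 in IgG1 PC, and Bmf held 5.51% ± 0.59 and 2.46% ± 0.48. Bax held the largest share of the 10 on average in every group, from 41.6% ± 0.92 in D6 to 29.5% ± 3.58 in IgG1 PC. These shares sum to 100% by construction and were not tested.

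**Figure D4:**
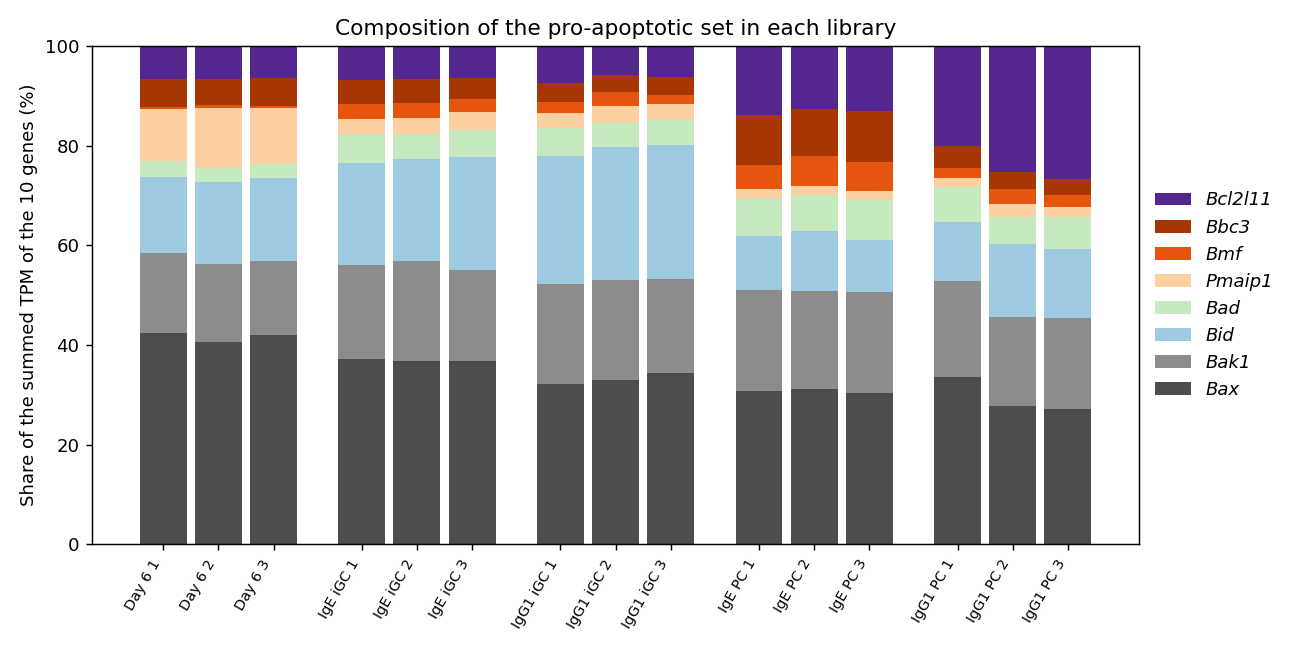
Share of the summed TPM of the 10 genes (vertical axis, percent) held by each of 8 genes in each of the 15 libraries; Bik and Hrk are too low to show. The Bcl2l11 share is widest in the 3 IgG1 PC libraries (19.9% to 26.6%), and the Bbc3 and Bmf shares are widest in the 3 IgE PC libraries.

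The ratio of Bbc3 to Bcl2l11 in TPM, which does not depend on the scale of a library, was 0.834, 0.776 and 0.854 in D6, 0.699, 0.709 and 0.665 in IgE iGC, 0.509, 0.620 and 0.604 in IgG1 iGC, 0.723, 0.749 and 0.795 in IgE PC, and 0.215, 0.141 and 0.124 in IgG1 PC. The IgG1 PC libraries stood below all 12 others. The ratio of Bmf to Bcl2l11 was 0.0849 ± 0.0055 in D6, 0.421 ± 0.017 in IgE iGC, 0.364 ± 0.110 in IgG1 iGC, 0.422 ± 0.065 in IgE PC and 0.104 ± 0.017 in IgG1 PC (SD, n = 3). In TPM, D6 and IgG1 PC overlapped at the low end, and the other 3 groups overlapped above them. TPM ratios also move with the effective length used for each gene, described under Other observations. For Bcl2l11 that length differed between libraries, and its part in this overlap was not tested.

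**Figure D5:**
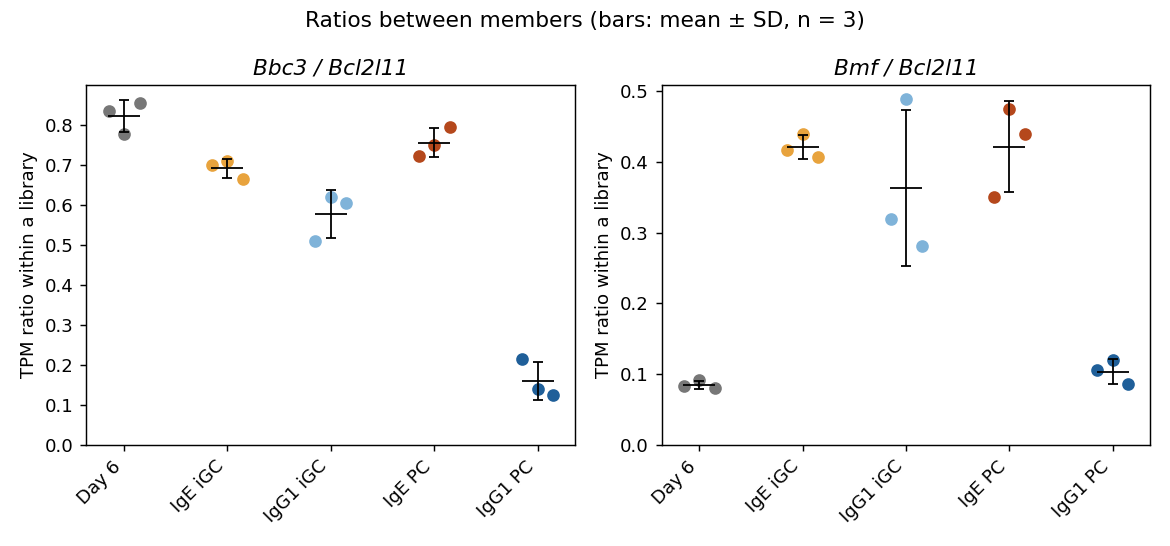
Ratios of TPM within each library (vertical axes, from 0) of Bbc3 to Bcl2l11 and of Bmf to Bcl2l11, by group, with mean and SD of 3 libraries. The Bbc3 ratio is lowest in IgG1 PC (0.124 to 0.215), and the Bmf ratio is low in both D6 and IgG1 PC.

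The pro-survival partners (8 genes, 7 tested) also differed between the plasma cell groups: 3 were higher and 4 lower in IgE PC (all genes 27.4% and 30.7%), with a median log2 difference of -1.18 against -0.05 over all genes. That median is the value of Bcl2a1a, which was at 0.951 CPM in IgE PC and 2.12 in IgG1 PC. The other lower genes were Bcl2a1b, Bcl2a1d and Bcl2l1. Bcl2a1a, Bcl2a1b and Bcl2a1d are related copies, so their calls, here and below, need not be separate signals. Whether reads were shared out between them was not checked. Mcl1, the partner with the most TPM in both groups (290 and 284), was higher in IgE PC (0.32, adjusted p = 0.000326). With totals alone as the scale 2 partners were called higher (Bcl2 and Bcl2l2) and 4 lower (all genes 14.5% and 46.3%). Mcl1 was not called higher on that scale. Bcl2, for which the family is named, was higher (1.21 on the log2 scale, SE 0.08, adjusted p = 1.24e-08), as was Bcl2l2 (0.80, SE 0.06), and Bcl2l1, which encodes BCL-XL, was lower (-1.24, SE 0.09, adjusted p = 1.81e-08). In CPM, Bcl2 was 222 ± 13.8 in IgE PC and 96.4 ± 9.80 in IgG1 PC, and Bcl2l1 was 21.5 ± 1.03 and 50.9 ± 7.18 (SD, n = 3). Between the iGC groups 2 were called, Bcl2a1b (-0.66) and Bcl2a1d (-0.67), both lower in IgE (all genes 1.88% lower). From iGC to PC, 3 rose and 2 fell in IgE, led by Bcl2l2 (1.05), Bcl2a1d (-1.41) and Bcl2a1b (-1.25), and 2 rose and 3 fell in IgG1, led by Bcl2l1 (1.62). The interaction called 2 higher and 3 lower (all genes 19.8% and 23.1%). The summed TPM of the 10 members divided by that of the pro-survival genes was 0.816 ± 0.043 in D6, 0.610 ± 0.014 in IgE iGC, 0.524 ± 0.029 in IgG1 iGC, 0.611 ± 0.008 in IgE PC and 0.616 ± 0.060 in IgG1 PC. For Bcl2l11 alone this ratio was 0.0803 ± 0.0046 in IgE PC and 0.147 ± 0.023 in IgG1 PC. Both ratios rest on a pro-survival sum whose make-up differed between groups. Bcl2a1b held 247 of 706 TPM in D6, 35.8 of 404 in IgE PC and 95.2 of 497 in IgG1 PC. Bcl2a1d held 126.5, 19.95 and 63.6 TPM in the same order.

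Transcription factors known to act on member genes (17 genes, all tested) were called 6 higher and 6 lower in IgE PC against IgG1 PC (all genes 27.4% and 30.7%), with a median of 0.04. Foxo3, a known activator of Bcl2l11 and Bbc3, was higher in IgE PC (0.76, SE 0.04, adjusted p = 3.02e-09), as were Atf4 (1.05) and Ddit3 (1.47), which act in the integrated stress response. Between the iGC groups 3 were called: Foxo3 (0.21) and Prdm1 (0.59) were higher and Trp73 (-1.69) was lower in IgE. Trp73 was low, at 0.271 CPM in IgE iGC and 0.923 in IgG1 iGC. With totals alone as the scale Prdm1 was not called (0.57, adjusted p = 0.0650). From iGC to PC 8 rose and 7 fell in IgE (all genes 30.5% and 33.6%) and 9 rose and 8 fell in IgG1 (all genes 30.1% and 29%), with Prdm1, the plasma cell regulator BLIMP1, up by 5.23 and 5.63, Bcl6 at -2.84 and -2.39, and Foxo3 up by 1.33 and 0.78. The interaction called 5 in each direction, among them Foxo3 (0.55), E2f1 (-1.05) and Trp53 (-0.57).

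Targets of p53 (21 genes, 3 of them members: Bax, Bbc3 and Pmaip1) were mostly lower in the sorted cells than in D6. In IgE iGC 3 were higher and 17 lower (all genes 32.8% and 36.3%), with a median log2 change of -1.25 against -0.04 over all genes. In IgG1 iGC the counts were the same (all genes 32.4% and 36%), with a median of -1.37 against -0.04. In IgE PC 5 were higher and 16 lower (all genes 36.9% and 39.5%; medians -1.13 and -0.04), and in IgG1 PC 3 were higher and 17 lower (all genes 35.9% and 36%; medians -0.92 and 0.01). Cdkn1a, the cell cycle inhibitor p21, was at -4.12 in IgE iGC and -4.01 in IgG1 iGC, and Aen at -1.53 and -1.54, while Sesn1 was higher, at 2.66 and 2.46. IgE PC and IgG1 PC differed at 12 of these genes, 5 higher and 7 lower in IgE (all genes 27.4% and 30.7%), among them Sesn2 (1.79), Trp53inp1 (1.49) and the member Bbc3. Between the iGC groups Bbc3 was the 1 gene called. From iGC to PC 6 rose and 9 fell in IgE and 7 rose and 5 fell in IgG1, and the interaction called 5 higher and 6 lower.

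Binders and regulators of the members (15 genes, 13 tested) were called 5 higher and 3 lower in IgE PC against IgG1 PC (median 0.08), including the chaperone Hspa9 (0.66) and Casp8 (-0.31), whose product cleaves BID. From iGC to PC 2 rose and 5 fell in IgE and 3 rose and 5 fell in IgG1, and against D6 10 or 11 were lower in each sorted group, where 36% to 39.5% of all genes were, with medians from -0.83 to -0.48, and with Hspa9 and Ywhag, a binder of BAD, at -1.92 and -1.47 in IgE iGC. Genes that act after the pore (14 genes) were called 4 higher and 3 lower in IgE PC against IgG1 PC (median 0.07), with Xiap at 0.77. From iGC to PC 5 rose and 5 fell in IgE and 6 rose and 5 fell in IgG1, with Diablo (0.77 and 0.65) among those that rose. Against D6 5 to 7 of these were higher and 4 to 6 lower in each sorted group, where 32.4% to 36.9% of all genes were higher. The shares of all genes called in the comparisons of stage, isotype and their interaction, given above beside the members, apply to these lists too. They also apply to the pro-survival partners, the transcription factors and the p53 targets. Between the iGC groups edgeR called 0 genes in either list, with 1 and 2 at an unadjusted p under 0.05, and DESeq2 called 0 and 1. The lists' splits moved with the scale too. With totals alone, binders and regulators in IgE PC against IgG1 PC were 1 higher and 7 lower (all genes 14.5% and 46.3% on that scale).

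The genes whose log2 CPM over the 15 libraries was most like that of each member, among 8887 candidates, are given as a description; the libraries share groups, so these correlations carry no test. For Bcl2l11 they were Tpst1 (Pearson r = 0.965) and Tpst2 (0.959), for Bbc3 Atp6v1g1 (0.960) and Rnf24 (0.957), and for Bmf Crisp3 (0.989) and Per1 (0.987). Pmaip1 was most like Uck2 (0.995) and Ece1 (0.995), Bid like Vrk2 (0.986) and Tgif1 (0.985), and Bad like Psenen (0.987) and Higd2a (0.985). Bax was most like Mrpl35 (0.960) and Ddx54 (0.953), and Bak1, the most even member, like Rpl38 (0.854) and Prelid1 (0.814). Of these 16 genes, 4 were still among the 2 most like when log2(TPM + 1) was used.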

How the data were processed

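Per the labels' protocols, polyA RNA of 15 samples was turned into strand-specific libraries and read from a single end (76 bp). The submitters' processing notes name cutadapt 1.9.1, STAR 2.5.2a, RSEM 1.3.0, DESeq2 1.12.3 and GRCm38. The annotation, strand setting and filters are not given in the sources used here. The authors deposited 1 table with RSEM's expected counts, which need not be whole, and TPM values, scaled for effective length and library total, per the file headers. Gene symbols came from a table of Ensembl names (51633 of 51912 matched, 279 not), and positions and coding sequences from GENCODE on GRCm38.

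Expected counts were rounded, filtered with filterByExpr (minimum count 10, minimum total 15) and scaled by TMM. The 5 group means were estimated together from the 15 libraries in edgeR 4.0.16 under R 4.3.3 (glmQLFit with robust dispersion, glmQLFTest), with Benjamini-Hochberg adjustment over 15692 genes and calls at an adjusted p under 0.05, for 9 contrasts. SE is the log2 fold change divided by the square root of its F statistic. The code was tested on simulated counts. Levels of different genes were compared in the deposited TPM.

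The members and gene lists were chosen with earlier results of these data known. The lists are textbook ones: pro-survival partners, binders and regulators, transcription regulators, p53 targets, steps after the pore, and markers of 7 cell types. All 10 members are named, with the 2 genes most like each (Pearson r of log2 CPM, prior count 2, candidates at 10 CPM or more in a group; immunoglobulin genes, T cell receptor genes, predicted genes and pseudogenes left out) and at most 3 called genes per list and contrast, by smallest p. Some of those are not reported here. Alternatives were DESeq2 1.42.0, its size factors, totals alone as the scale, no filter, only the groups compared, no robust dispersion, a replicate block and leaving out each library. Replicates of a group correlated at 0.978 to 0.993 in log2 CPM, with differences beyond counting noise in every pair. These differences were largest in IgG1 PC, with a chi-square per degree of freedom of 29.76 to 100.6 between its pairs. Pairs of the other groups had 4.641 to 25.15. Each gene's spread was shared by all groups in the fit, so its SE is not specific to IgG1 PC.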

Additional observations from a re-analysis of the deposited data

Results flagged for a closer look

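Between iGC and PC, 4 of the 8 genes tested changed by different amounts in IgE and IgG1, by the interaction of isotype and stage in edgeR's quasi-likelihood test over all genes (42.9% of genes called). For Bcl2l11 the interaction was -0.91 on the log2 scale (adjusted p = 1.92e-07): its rise was larger in IgG1 in comparison with IgE. For Bbc3 it was 0.79 (adjusted p = 0.000491) and for Bmf 0.60 (adjusted p = 0.00118), with the higher value in IgE; the change of Bbc3 in IgG1 alone did not pass (0.23, adjusted p = 0.0627). For Pmaip1 it was -0.46 (adjusted p = 0.00622), with the larger fall in IgE.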

How the results depend on the processing

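The 72 values of single members (8 genes in 9 comparisons) were each taken under every alternative. Counted over values and alternatives, 1505 kept direction and call. With the sign kept, 22 lost a call and 27 gained one, and 30 changed sign, whether or not the call changed too. With totals alone as the scale the members called were 1 in IgE iGC against IgG1 iGC (3 with TMM) and 7 in the interaction (4 with TMM), and sign changed for Bad in IgE PC against IgG1 PC (-0.10), in IgE PC against IgE iGC (-0.0677) and in the interaction (-0.23), for Bbc3 in IgG1 PC against IgG1 iGC (-0.00386) and IgE PC against D6 (-0.0305), and for Bak1 in IgG1 PC against IgG1 iGC (-0.15) and against D6 (-0.20). With only the groups compared in the fit, sign changed for Bad in the interaction (-0.00607), Bcl2l11 in IgE iGC against D6 (0.00873) and Bak1 in IgG1 iGC against D6 (0.0534). Leaving out 1 library at a time gave 0 to 4 members called between the iGC groups (edgeR; 3 to 6 at an unadjusted p under 0.05). It also changed the sign of values near 0: Bax in IgE PC against IgG1 PC (-0.163 to 0.0581) and IgG1 PC against IgG1 iGC (-0.193 to 0.0213), Bad in the interaction (-0.12 to 0.12), Bcl2l11 in IgE iGC against D6 (-0.0791 to 0.00525), and Bak1 in IgG1 iGC against D6 (-0.0291 to 0.0526) and IgE PC against D6 (-0.0347 to 0.0279). The number of members with their highest group mean in D6 was 4 in TPM and 2 in CPM, and 4 of the 16 most alike genes held with log2(TPM + 1). Same-numbered libraries did not deviate together (30 correlations from -0.20 to 0.09, with the own number highest in 11), and a replicate block left every count of members called as it was, with 5 in IgE PC against IgG1 PC. Depth limits Bik and Hrk only.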

Other observations

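The deposited expected count of a gene divided by its TPM is proportional to the effective length RSEM used, which moves with the mix of transcripts of the gene. Relative to the median gene of each library, this implied length of Bcl2l11 had group means on the log2 scale of -0.12 in IgG1 PC and 0.07 in IgE PC, of 0.07 in IgG1 iGC and 0.09 in IgE iGC, and of -0.11 in D6. The range over groups was 0.21, against a median range of 0.08 over 9639 genes with at least 50 counts and 1 TPM in every library. Within IgG1 PC the values were 0.01, -0.07 and -0.31, and the Bcl2l11 TPM of replicate 1 (54.6) was below those of replicates 2 and 3 (77.7 and 87.0) although its CPM (200) was close to theirs (214 and 206). Ranges of the other members were 0.17 for Bmf, 0.12 for Bak1, 0.11 for Bbc3, 0.07 for Bid and Bad, 0.03 for Bax and 0.00 for Pmaip1. Transcript-level values were not analysed here.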
